A study of Mus musculus with 9 samples.

Results

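The stem cell transcription factor heptad is a set of 7 genes, Gata2, Tal1, Lyl1, Lmo2, Runx1, Erg and Fli1, whose proteins are known to bind together at enhancers of hematopoietic stem cells (HSCs). They were taken by name, each with its probe set of a single gene symbol and, where several exist, the highest mean over the 9 arrays. Each had 1 such probe set, so the 7 members were 7 of 22180 genes on the array, and all 7 passed a filter on dim genes that kept 16636 genes. Gene expression was measured on Affymetrix Mouse Gene arrays in HSCs that were sorted from bone marrow of 6- to 8-month-old mice, with 3 biological replicates of each of 3 genotypes. KO mice carried 2 floxed alleles of Bcl11a, the gene of a zinc finger repressor, together with the Mx1-Cre transgene. Het mice carried 1 floxed and 1 wild-type allele with Mx1-Cre. WT mice carried 2 floxed alleles without Mx1-Cre, so they differ from the other genotypes in Cre as well as in Bcl11a. All 3 genotypes were given 5 doses of poly(I:C), a double-stranded RNA that induces interferon and through it the Mx1 promoter, which is active in many cell types. Sorted cells were positive for Sca-1, Kit and CD150, lacked lineage markers, Flt3 and CD48, and were taken either with or without YFP. The sources used here do not say which YFP gate belongs to which array, nor whether an array holds 1 mouse or several.

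The 7 factors belong to 5 protein families that meet on the same DNA. GATA2 is a zinc finger protein that binds GATA motifs, TAL1 and LYL1 are related basic helix-loop-helix proteins that bind E-boxes with an E protein as partner, and LMO2 binds no DNA itself but bridges these proteins. RUNX1 binds its own motif with CBFB, and ERG and FLI1 are closely related ETS factors. The factors are also known to bind the enhancers of each other's genes, and HSCs need several of them to form or to persist.

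Values are log2 expression from the authors' RMA summaries. A difference of 1 is a doubling, and levels are compared between arrays for one gene, not between genes. Array medians lay between 3.95 and 4.15, and arrays of one genotype correlated at r of 0.862 to 0.932 across probe sets. Transcripts of the other sex gave a scale for absent RNA: on the 5 arrays of male mice Xist lay at 3.58 to 4.22, and on the 4 of female mice 3 Y-linked genes lay at 2.22 to 3.32. By these transcripts 1 KO, 1 Het and 2 WT arrays were female. Bcl11a read 7.82, 7.90 and 8.66 in KO cells, 8.34, 8.37 and 8.89 in Het cells, and 8.73, 8.81 and 8.38 in WT cells. The array labelled KO replicate 3 therefore read within the WT range, and since the positions of the probes and of the deleted part are not given here, Bcl11a cannot show whether deletion took place. WT replicate 1 stood apart from the other arrays in the factors themselves, as described first, and results are given with and without it. In sorted populations, fewer cells of a type and less RNA per cell cannot be told apart.

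All 7 factors lay above the range of absent transcripts on every array, the lowest reading being 4.93 for Tal1 on WT replicate 1. This array was the lowest of the 9 for 6 of the 7 factors and tied for lowest with KO replicate 3 for Fli1. Among all genes tested, 16.5% were lowest on WT replicate 1. Gata2 was 3.07 lower there than the mean of the other WT arrays, a gap as large in that direction in 0.168% of genes tested. Tal1 was lower by 1.68, Erg by 1.15, Lyl1 by 1.11, Runx1 by 0.815, Lmo2 by 0.77 and Fli1 by 0.305, while the median over all genes tested was 0.015 higher on that array. The mean of all 7 factors was 6.70 on WT replicate 1 and between 7.90 and 8.31 on the other 8 arrays.

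Most of a set of HSC marker genes were also low on WT replicate 1. The mean of 7 HSC marker genes was 5.74 on that array, against 6.47 and 6.81 on the other WT arrays, 7.10 to 7.31 on Het arrays and 7.19 to 7.86 on KO arrays. Of these 7, Kit and Slamf1, the gene of CD150, belong to the sort gate, and Procr, Fgd5, Hlf, Mecom and Hoxb5 are HSC genes outside it. Hoxb5 was not low there, at 5.30 on WT replicate 1 against 4.89 and 5.58 on the other WT arrays. Slamf1 read 4.64 on WT replicate 1, close to 4.67 on WT replicate 2. Flt3 and Cd48, the genes of markers that the sorted cells lacked, averaged 4.91 on WT replicate 1. They averaged 3.81 on WT replicate 2 and 4.96 on WT replicate 3, so WT replicate 1 did not stand apart in them. Het arrays had 4 to 4.53 and KO arrays 3.73 to 4.14. Granulocyte and monocyte markers averaged 6.44 on WT replicate 1, the highest of the 9 arrays. KO arrays had 4.68 to 5.07, Het arrays 4.98 to 6.29 and the other WT arrays 5.68 and 6.26. In that list Mpo ran the other way, at 4.95 on WT replicate 1 against 6.19 and 5.14 on the other WT arrays. S100a8, a neutrophil calcium-binding protein, read 8.42 to 8.97 on the 3 WT arrays, where KO arrays had 2.31 to 6.74 and Het arrays 5.06 to 8.74. The array also had the narrowest spread of values, with an interquartile range of 2.22 where the others had 2.39 to 2.83. The part of these differences in the low factor readings was not tested.

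**Figure D1:**
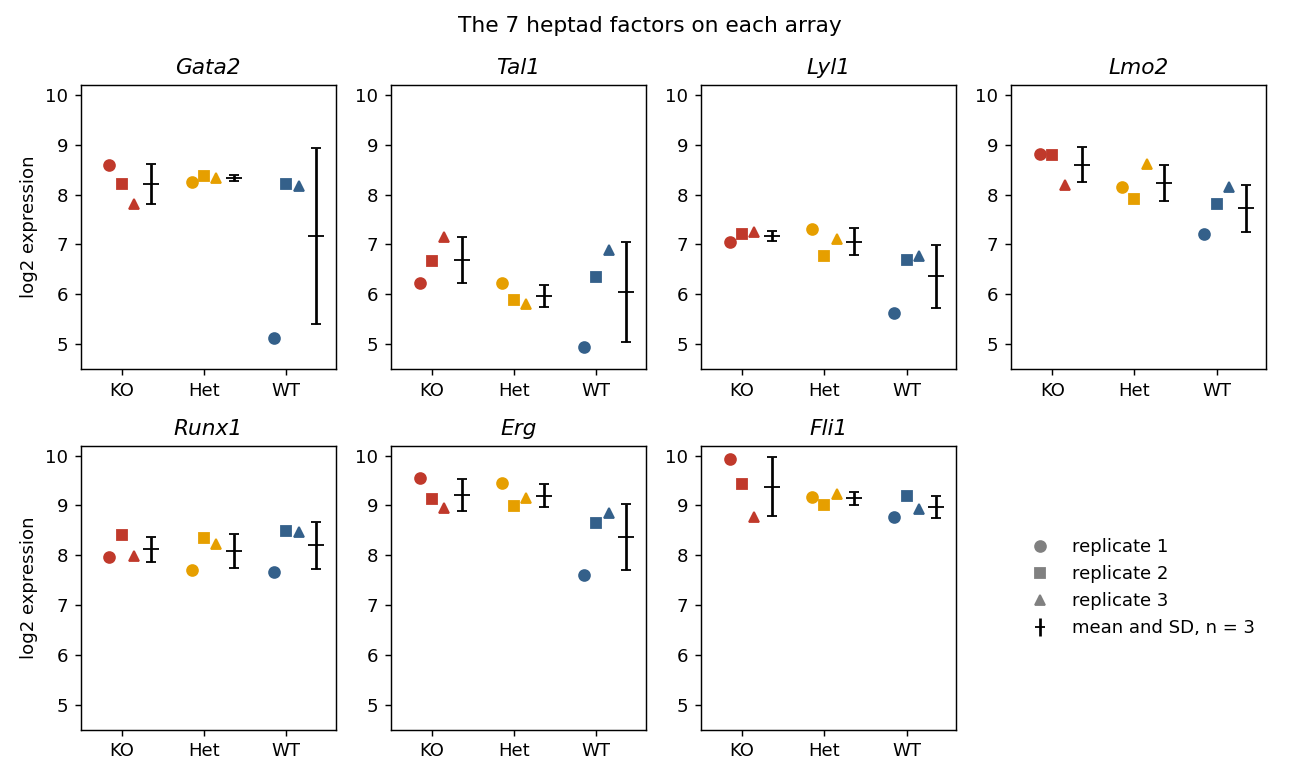
Log2 expression (y axis) of each of the 7 factors on each array, by genotype (x axis: KO, Het, WT), with the marker shape giving the replicate number and the black bar the mean and SD of 3 arrays. WT replicate 1, the blue circle, is the lowest point or tied for it in every panel and lies farthest below in Gata2, at 5.13 against 7.81 to 8.60 on the other 8 arrays.

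KO cells were set against WT cells to see the state of the factors after loss of both Bcl11a copies. In KO cells 6 of 7 factors read higher than in WT cells and Runx1 read 0.08 lower (7 of 7 were higher with arrays centred on their medians), with a median difference of 0.81, where 45.3% of all genes tested were higher and their median was -0.04. None of the 7 passed the test over all genes (limma, adjusted p under 0.05), at which 0.0421% of genes were called. At an unadjusted p under 0.05 there were 3 factors, Lmo2, Erg and Lyl1, where 8.21% of genes had such a p. The 3 KO arrays lay above all 3 WT arrays for these 3 factors, as they did for 6.51% of genes tested. Without WT replicate 1 the median difference was 0.312, still with 6 of 7 higher, and 0 factors had an unadjusted p under 0.05, where 5.67% of genes did. All 7 HSC marker genes were higher in KO cells and none passed, with a median KO minus WT difference of 1.24, and 1.05 without WT replicate 1. Of the gate genes among them Kit differed by 0.39 and Slamf1 by 1.63, and of the others Mecom differed by 1.94 and Hoxb5 by 2.24. Granulocyte and monocyte markers ran the other way, with 6 of 6 lower in KO cells and a median of -0.88. The part of either in the factor differences was not tested.

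Gata2, the GATA factor that HSCs depend on for their maintenance, read 8.60, 8.22 and 7.81 in KO cells, 8.26, 8.38 and 8.33 in Het cells, and 5.13, 8.22 and 8.17 in WT cells. Apart from the single low array, its 8 readings lay between 7.81 and 8.60 and the KO arrays interleaved with the others. Its mean was 8.21 ± 0.395 in KO, 8.32 ± 0.0603 in Het and 7.17 ± 1.77 in WT cells (SD, n = 3 each). The KO minus WT difference was 1.04 (95% interval -0.48 to 2.55, adjusted p = 0.698), and 0.015 (-0.60 to 0.63) without WT replicate 1. KO minus WT was 1.16 within female mice (1 KO array and 2 WT arrays, that array among them) and 0.19 within male mice (2 KO arrays and 1 WT array).

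Tal1, the helix-loop-helix factor at the start of blood formation, read 6.23, 6.67 and 7.15 in KO cells, 6.22, 5.89 and 5.80 in Het cells, and 4.93, 6.34 and 6.88 in WT cells. KO and WT arrays overlapped, while every KO array stood above every Het array, with 6.23 for the lowest KO array and 6.22 for the highest Het array. KO minus WT was 0.63 (-0.36 to 1.63, adjusted p = 0.714), and 0.073 without WT replicate 1. It turned to -0.16 without WT replicate 1 and KO replicate 3 together.

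Lyl1, the relative of Tal1 that can replace it in adult stem cells, read 7.05, 7.20 and 7.25 in KO cells, 7.30, 6.76 and 7.10 in Het cells, and 5.62, 6.68 and 6.77 in WT cells. Its lowest KO array was above its highest WT array. The means were 7.17 ± 0.104 in KO and 6.36 ± 0.640 in WT cells (SD, n = 3 each), a difference of 0.81 or 1.75-fold (0.11 to 1.51, adjusted p = 0.563). Without WT replicate 1 it was 0.44 (-0.12 to 1.0, adjusted p = 0.920).

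Lmo2, the bridge of the complex, read 8.81, 8.79 and 8.19 in KO cells, 8.16, 7.92 and 8.62 in Het cells, and 7.21, 7.81 and 8.15 in WT cells. Its KO and WT arrays did not overlap, but only narrowly, with 8.19 for the lowest KO array, replicate 3, and 8.15 for the highest WT array. The difference of 0.87 (1.83-fold, 0.18 to 1.57, adjusted p = 0.547) had the smallest unadjusted p of the 7 factors, 0.0186. Among the 7 it also kept the largest difference without WT replicate 1, at 0.62 (-0.08 to 1.32, adjusted p = 0.901).

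Erg, an ETS factor that HSCs need for self-renewal, read 9.56, 9.12 and 8.95 in KO cells, 9.46, 8.99 and 9.15 in Het cells, and 7.60, 8.65 and 8.84 in WT cells. It was the one factor for which all 6 arrays of Cre-carrying cells lay above all 3 WT arrays. Of genes tested, 6.51% had all KO arrays and 4.51% all Het arrays above the WT arrays, and the share with both was not counted. The mean was 9.21 ± 0.315 in KO, 9.20 ± 0.239 in Het and 8.36 ± 0.668 in WT cells (SD, n = 3 each), and KO minus WT was 0.85 (1.80-fold, 0.10 to 1.60, adjusted p = 0.569). It was 0.73 among female mice, with 1 KO array and 2 WT arrays, WT replicate 1 among them. The female KO array read 8.95 and the other female WT array 8.84. KO minus WT was 0.69 among male mice (2 KO arrays, 1 WT array) and 0.465 without WT replicate 1.

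Fli1, the ETS relative of Erg and a driver of megakaryocyte genes, read 9.94, 9.43 and 8.76 in KO cells, 9.18, 9.0 and 9.24 in Het cells, and 8.76, 9.20 and 8.93 in WT cells. KO replicates 1 and 2 were the highest of the 9 arrays and KO replicate 3 tied with the lowest. KO minus WT was 0.41 (-0.25 to 1.08, adjusted p = 0.718), 0.72 without KO replicate 3, 0.132 without KO replicate 1 and 0.312 without WT replicate 1. It was -0.085 among female mice, whose WT arrays included WT replicate 1, and 0.485 among male mice.

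Runx1, which sets up definitive blood stem cells in the embryo and restrains lineage output in the adult, read 7.97, 8.41 and 7.99 in KO cells, 7.70, 8.34 and 8.23 in Het cells, and 7.66, 8.48 and 8.47 in WT cells. The genotypes overlapped fully and the KO minus WT difference was -0.08 (-0.74 to 0.58, adjusted p = 0.947), with a sign that turned (0.007) when each array was centred on its median. Without WT replicate 1 it was -0.352 (-0.98 to 0.28).

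**Figure D2:**
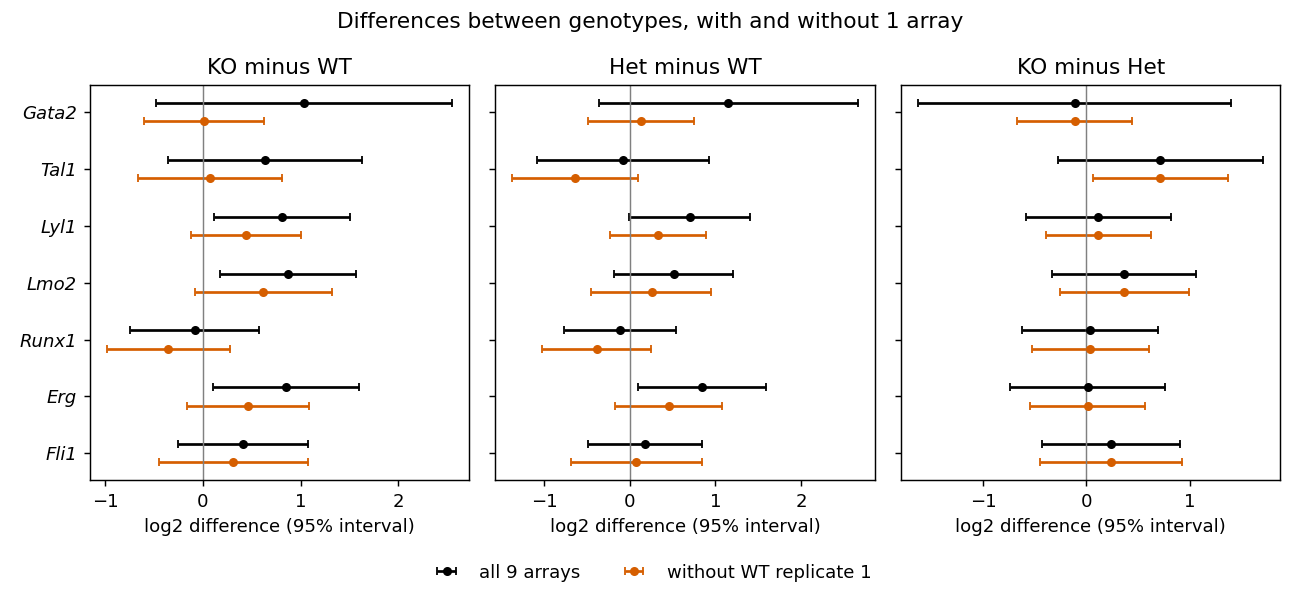
Differences on the log2 scale (x axis) of the 7 factors (y axis) for KO minus WT, Het minus WT and KO minus Het, as limma estimates with 95% intervals that are not adjusted for the number of genes, from all 9 arrays (black) and without WT replicate 1 (orange). Without that array the KO minus WT estimate of Gata2 is 0.015 where it was 1.04, those of Lyl1, Lmo2 and Erg are 0.44 to 0.62, and all 7 KO minus WT intervals include 0.

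Het cells were set against WT cells to see the state of the factors with 1 Bcl11a copy lost. In Het cells 5 of 7 factors read higher than in WT cells, with a median difference of 0.51 (all genes tested: 48.2% higher, median -0.01). No factor and no other gene passed with limma (0% called), and at an unadjusted p under 0.05 there was 1 factor, Erg, where 4.89% of genes had such a p. That count was 0 without WT replicate 1, Het replicate 1 or Het replicate 3, 2 without Het replicate 2, and 3 without WT replicate 2 or 3. Erg differed by 0.84 (0.09 to 1.59, adjusted p = 0.972), close to its KO minus WT value of 0.85, and these comparisons share the WT arrays. The Het arrays lay above all WT arrays for Erg and for Gata2, as they did for 4.51% of genes tested, with Gata2 at 8.26 for the lowest Het array and 8.22 for the highest WT array. Lyl1 differed by 0.70 (-0.01 to 1.40), Lmo2 by 0.51 (-0.18 to 1.20) and Gata2 by 1.15 (-0.36 to 2.66), and Fli1 (0.18), Tal1 (-0.08) and Runx1 (-0.11) stood close to 0. Without WT replicate 1 the median was 0.128, with Gata2 at that value, Erg at 0.455 and Tal1 at -0.64 (-1.37 to 0.09).

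KO and Het cells both carry Cre and differ by label in the second Bcl11a allele, with the limits on the YFP gate and on the Bcl11a reading of KO replicate 3 given above. The factors differed little: 6 of 7 were higher in KO cells, but 3 of 7 after quantile normalization, with a median of 0.113 (all genes: 46.9% higher, median -0.02). None passed with limma, as no gene did (0% called). At an unadjusted p under 0.05 there were 0 factors and 4.56% of genes. Erg differed by 0.01 (-0.74 to 0.76), Runx1 by 0.033 and Lyl1 and Gata2 by 0.113 and -0.113, while Fli1 differed by 0.24 and Lmo2 by 0.36 (-0.33 to 1.06). Tal1 had the largest difference, 0.71 (-0.28 to 1.71, adjusted p = 0.998), and was the 1 factor whose KO arrays all exceeded its Het arrays, as 4.42% of genes did. With WT replicate 1 left out of the pooled spread Tal1 had an unadjusted p of 0.0363 (adjusted p = 0.950), where 5.01% of genes were under 0.05. Along the series of 0, 1 and 2 deleted alleles the slope per allele was 0.44 for Lmo2, 0.42 for Erg and 0.405 for Lyl1, with unadjusted p of 0.0135, 0.0344 and 0.0264 (8.65% of genes under 0.05) and adjusted p of 0.491 to 0.538, and no factor passed (0.018% of genes called). Without WT replicate 1 the median slope of the 7 factors was 0.162, against 0.405 with it, and 0 factors had a slope with an unadjusted p under 0.05.

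Joint behaviour was read from the 21 pairs of factors across the 9 arrays. All 21 pairs had a Pearson r above 0, with a median of 0.546, where the median r of a single factor with all genes tested was between -0.046 and -0.025. The highest values joined Erg to Lyl1 (r = 0.920), Gata2 (0.903) and Lmo2 (0.842), and Lyl1 to Gata2 (0.859) and Lmo2 (0.812). For Erg with Lyl1, 0.168% of all genes tested were at least as close to Erg as Lyl1 was. For Gata2 with Runx1 (0.546), 12.5% of genes were at least as close to Gata2 as Runx1 was. The lowest values were those of Fli1 with Tal1 (0.075) and of Runx1 with Fli1 (0.102) and Erg (0.173). There 42.1% of genes were at least as close to Fli1 as Tal1 was. For Runx1, 37.6% were at least as close as Fli1 and 31.3% as Erg. The shares of all gene pairs with an r above 0, or that would pass the test below, were not counted.

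Adjusted over the 21 pairs, 4 passed by an exact two-sided permutation test of r, each with an adjusted p of 0.048: Erg with Lyl1 (p = 0.00484), Erg with Lmo2 (0.00535), Erg with Gata2 (0.00837) and Lmo2 with Lyl1 (0.00915). By rank none passed, with Spearman's rho of 0.667 for Erg with Lyl1 (exact permutation p = 0.0589, adjusted 0.177), 0.817 for Erg with Lmo2 (p = 0.0108, adjusted 0.161), 0.787 for Erg with Gata2 (p = 0.0153, adjusted 0.161) and 0.683 for Lmo2 with Lyl1 (p = 0.0503, adjusted 0.177). On deviations from the genotype means these pairs had r of 0.834, 0.756, 0.904 and 0.640. Exact permutation within genotypes gave them p of 0.111, 0.0833, 0.0556 and 0.208. The smallest p that this permutation can give is 0.00463, too large for a lone pair to pass after adjustment over the 21 pairs. No pair passed in that form, and with so few arrangements this cannot decide whether factors vary together within genotypes.

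When WT replicate 1 was left out, 11 of 21 pairs had an r above 0, the median was 0.055, and the range ran from -0.762 to 0.791. On deviations from the genotype means the median r was 0.64 with that array and 0.394 without it, where 17 of 21 pairs were above 0. Without the 2 arrays farthest from the median of Gata2 or Lyl1, or of Lmo2 for its pair with Erg, r was 0.65 for Gata2 with Erg, 0.473 for Lyl1 with Erg, 0.381 for Lyl1 with Lmo2 and 0.473 for Lmo2 with Erg. Over the 8 arrays Erg, Lmo2 and Fli1 had r of 0.643 to 0.689 among themselves, Fli1 with Gata2 had 0.791 and Lyl1 with Erg 0.643, while Runx1 had -0.762 with Erg and -0.732 with Lyl1, and Tal1 had -0.749 with Gata2. On deviations from the genotype means the last 3 pairs had r of -0.101, 0.007 and 0.314 over the same arrays. These 8-array values are descriptions that include the differences between genotypes, and the number of pairs that passed over them was 0.

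**Figure D3:**
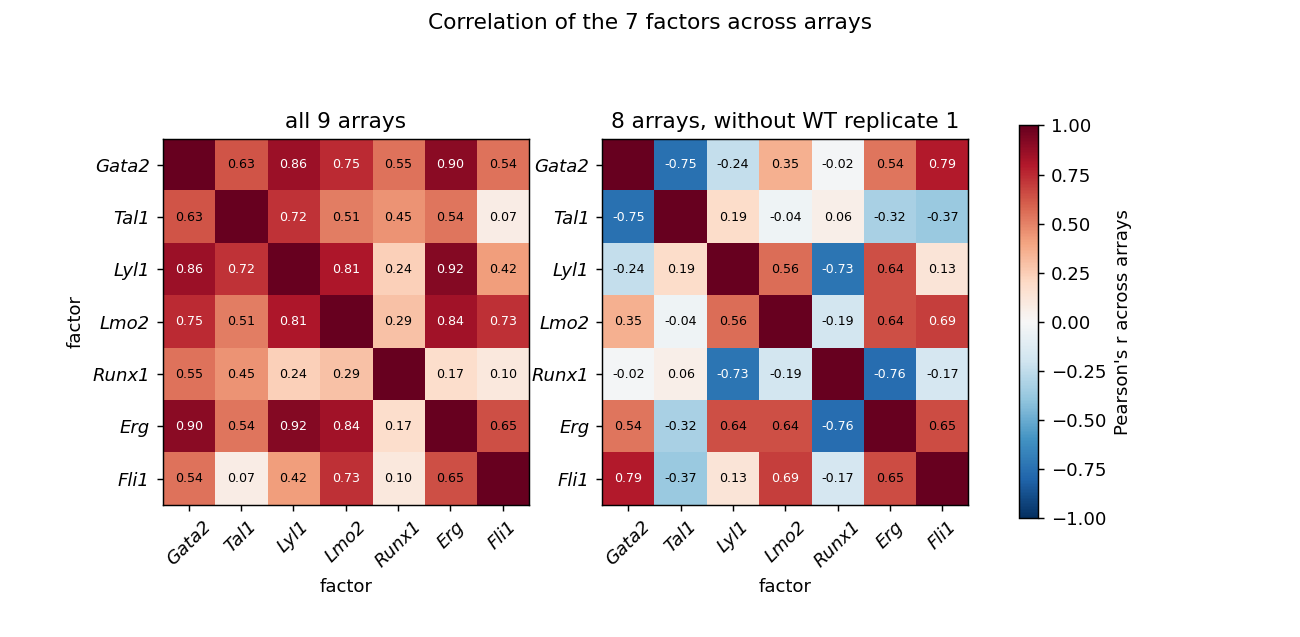
Pearson's r across arrays between each pair of factors (both axes list the factors, colour and printed value give r from -1 to 1), over all 9 arrays at left and over the 8 arrays without WT replicate 1 at right. All 21 pairs are above 0 at left and 11 of 21 at right.

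The starts of the pair with the highest r, Erg and Lyl1, are shown as the 250 bases before a RefSeq transcription start on build GRCm38.p6, in lower case with matches to searched motifs in capitals. The motifs were AGATAA for GATA factors, AGGAAG for ETS factors, TGTGGT for RUNX1 and the E-box CAGCTG for TAL1 and LYL1, on both strands, and none of the matches shown overlap. For Erg the start with most kinds of match is given, one of 3 in the table, and Lyl1 has 1 start there.
Erg, chr16:95459349-95459598, minus strand: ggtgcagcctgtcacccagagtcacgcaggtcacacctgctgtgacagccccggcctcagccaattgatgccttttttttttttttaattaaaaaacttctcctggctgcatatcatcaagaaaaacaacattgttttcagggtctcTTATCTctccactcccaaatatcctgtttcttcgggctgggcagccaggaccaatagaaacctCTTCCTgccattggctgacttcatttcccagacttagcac
Lyl1, chr8:84701207-84701456, plus strand: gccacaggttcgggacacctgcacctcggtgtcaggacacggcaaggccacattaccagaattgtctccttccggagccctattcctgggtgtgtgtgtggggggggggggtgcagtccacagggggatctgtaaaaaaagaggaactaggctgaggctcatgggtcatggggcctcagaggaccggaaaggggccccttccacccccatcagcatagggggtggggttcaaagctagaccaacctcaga
The Erg window held the GATA letters 103 bases and the ETS letters 40 bases before the start, both read on the other strand. The Lyl1 window held none of the 4 searched strings of letters. Other forms of these motifs, such as other ETS or E-box letters, were not searched, so their absence is not shown. Of the 10 starts that the table holds for 5 of the factors, 3 had a match. These were the Erg start shown, 1 of 2 Tal1 starts with the GATA letters and 1 of 2 Runx1 starts with the ETS letters. Among 32851 starts of all genes, 9.99% held the GATA, 29.5% the ETS, 14% the RUNX and 13% the E-box letters. A match is a match of letters only, and which start each probe set reads is not given here.

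Partners and cofactors of the heptad stood nearer to the rest of the genome. Of 17 tested, none rose or fell between KO and WT, 10 were higher, and the median difference was 0.117 (0.81 for the 7 factors, -0.04 for all genes). Ldb1, the adaptor that binds LMO2 and joins the complex into loops, read 8.85, 9.30 and 9.13 in KO cells. It read 9.10, 7.65 and 8.90 in Het cells, and 6.98, 8.81 and 8.83 in WT cells. Its KO and WT arrays did not overlap (0.89, adjusted p = 0.671). WT replicate 1 was again the lowest array, with Het replicate 2 also low. Without WT replicate 1 the KO minus WT difference was 0.273. Ssbp2, which stabilises LDB1, differed by 0.74 and Sin3a, the scaffold of a histone deacetylase corepressor, by 0.63. Zfpm1, the FOG1 cofactor of GATA proteins, read 8.02, 7.89 and 7.62 in KO cells, 7.83, 8.17 and 8.37 in Het cells, and 7.03, 7.61 and 7.16 in WT cells. Its Cre-carrying arrays all stood above its WT arrays, like those of Erg, with a KO minus WT difference of 0.58 (adjusted p = 0.592) and a Het minus WT difference of 0.86 (adjusted p = 0.758). Its KO minus WT difference was 0.458 without WT replicate 1.

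Relatives of the factors, and the ID proteins that block E proteins, showed no common direction. Of 10 tested, none rose or fell in KO cells, 6 were higher, 3 lower and Lmo1 equal, and the median KO minus WT difference was 0.045. Ets1, an ETS factor of lymphocytes, differed by 0.47, Gata3, a GATA factor of T cells, by 0.24, and Lmo4, another LIM-only protein, by 0.20. Gata1, the erythroid GATA factor that replaces GATA2 on chromatin during red cell formation, read 3.62, 3.81 and 4.22 in KO cells, against 4.07, 4.08 and 4.53 in WT cells, in or near the range of absent transcripts (-0.34, adjusted p = 0.724). Tal2 lay under the filter, and Runx2 and Fev were not analysed here.

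Genes with control regions known to be bound by 1 or more of the factors had a median KO minus WT difference of 0.357, with 9 of 13 higher and none passing. Tek, the angiopoietin receptor TIE2 of HSCs and endothelium, read 6.50, 5.72 and 6.03 in KO cells, 4.91, 4.54 and 6.41 in Het cells, and 3.28, 4.64 and 5.26 in WT cells. Its KO and WT arrays did not overlap (1.69, adjusted p = 0.514), and the difference was 1.13 without WT replicate 1, the array on which Tek read among absent transcripts. Eng, the TGF-beta coreceptor endoglin, read 8.59, 8.61 and 8.05 in KO cells, against 5.12, 7.37 and 8.25 in WT cells. It differed by 1.5 (adjusted p = 0.583), and by 0.607 without WT replicate 1. Meis1, a homeobox factor of HSCs, differed by 0.48, and Pf4, platelet factor of megakaryocytes, by -0.86 (adjusted p = 0.712 and 0.733). Without WT replicate 1 the medians of the partners, relatives and bound genes were -0.047, 0.019 and 0.173, against 0.312 for the factors and -0.033 for all genes.

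**Figure D4:**
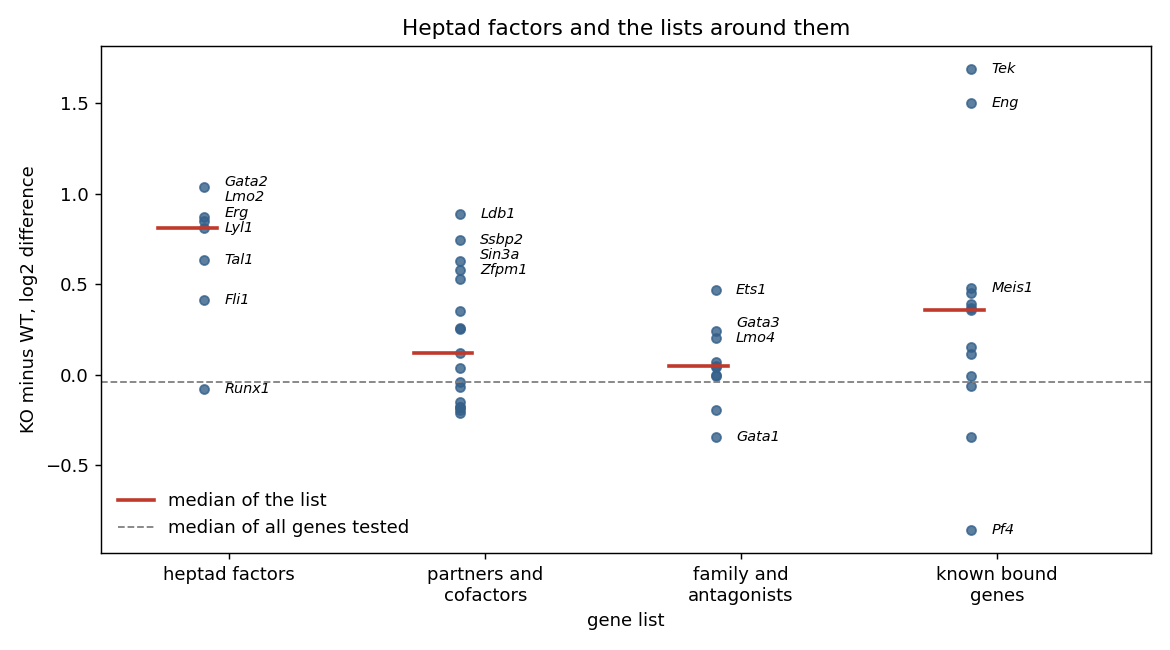
KO minus WT differences on the log2 scale (y axis) for the tested genes of 4 lists (x axis: the 7 factors, their partners and cofactors, their relatives and antagonists, and genes known to be bound by them), from all 9 arrays. Red bars are list medians, 0.81 for the factors, 0.117 for partners, 0.045 for relatives and 0.357 for bound genes, and the dashed line is the median of all genes tested.

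Endothelium and mast cells also express several of the factors. Among endothelial markers, Cdh5, Cldn5 and Plvap read 2.62 to 4.6 over the 9 arrays, mostly in the range of absent transcripts. Kdr, a VEGF receptor of endothelium, read 4.23 to 5.85 in KO, 4.25 to 4.71 in Het and 3.53 to 3.94 in WT cells. Pecam1 and Emcn, which HSCs also express, read 7.30 to 7.63 and 6.92 to 8.11 in KO cells, against 4.85 to 5.87 and 5.39 to 6.72 in WT cells. The mean of the 6 endothelial markers was 5.05 to 5.48 in KO, 4.56 to 4.97 in Het and 4.40 to 4.84 in WT cells. Mast cell and basophil markers averaged 2.58 to 3.02 in KO, 2.73 to 3.16 in Het and 2.94 to 3.43 in WT cells, with all 4 at or near the level of absent transcripts. Megakaryocyte markers averaged 5.24 to 6.09 in KO, 4.9 to 5.83 in Het and 4.77 to 5.04 in WT cells. Within that list KO minus WT was 1.96 for Ppbp, 0.71 for Gp9 and -0.117 for Gp6 (adjusted p = 0.463, 0.681 and 0.885). Ppbp read 6.79, 4.14 and 6.85 in KO cells and 3.82 to 4.07 in WT cells. Erythroid markers averaged 4.68 to 6.80 in KO, 5.13 to 6.21 in Het and 5.48 to 6.27 in WT cells. B cell and T and NK cell markers averaged 3.12 to 4.22 on all 9 arrays. Among them Klrb1c, an NK cell receptor gene, read 6.04, 7.07 and 6.14 in KO cells, 5.09, 4.24 and 4.02 in Het cells, and 3.98, 4.95 and 3.77 in WT cells (KO minus WT 2.18, adjusted p = 0.168), while Ncr1, another NK cell receptor gene, read 3.30 to 4.15 over the 9 arrays. The part of these cells in the factor differences was not tested.

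The genes whose pattern was most like that of the factors were named by the highest r over the 9 arrays, as a description. For the mean of the 7 factors these were Pkm, a pyruvate kinase (0.987), Uba7 (0.974), Slc35e1 (0.973), Eng (0.970), which is also in the list of bound genes, and P4hb, a protein disulfide isomerase (0.968). Over the 8 arrays without WT replicate 1 these r were 0.866, 0.872, 0.631, 0.739 and 0.704. The likeness of single factors differed in how much it owed to that array. Gata2 was closest to Slc35e1 (0.994), Sf1, a splicing factor (0.968), and Mdm4, a p53 inhibitor (0.964), and without WT replicate 1 these r were 0.845, 0.404 and 0.01. Lmo2 was closest to Dync1h1, the dynein heavy chain (0.988, and 0.978 without that array), Glud1 (0.977) and Wdfy4 (0.975), and Fli1 to Zfp1 (0.978, and 0.979), Psenen, a gamma-secretase subunit (0.964), and Gkn3 (0.952). Erg was closest to Ehmt2, a histone methyltransferase (0.977, and 0.907), Chmp5 (0.954) and Qk, an RNA-binding protein (0.949). Lyl1 was closest to Selenow (0.981), the noncoding RNA Neat1 (0.979) and Tceanc2 (0.974), Tal1 to Fbxo22 (0.957), Csgalnact2 (0.946) and Usp19 (0.945), and Runx1 to Dock11 (0.953), Dyrk3 (0.944) and Ebna1bp2 (0.934). No gene was among the closest 3 of more than 1 factor.

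The spread between arrays differed among the factors. The pooled SD within genotypes was 1.05 for Gata2, where 2.22% of genes tested had an SD at least as large, 0.652 for Tal1, and 0.365 to 0.448 for the other 5 factors, where the median of all genes was 0.368. With the interquartile range of each array, 2.42 to 2.83 in KO and 2.22 to 2.69 in WT cells, as a term the KO minus WT differences were 0.351 for Gata2, 0.52 for Erg, 0.472 for Lmo2 and 0.152 for Fli1, and the median over the 7 factors was 0.446. The number of factors with an unadjusted p under 0.05 for KO with WT, 3 with all arrays, was 1 with that term, 0 without WT replicate 1 or KO replicate 2 and 1 without KO replicate 1.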

How the data were processed

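The authors deposited log2 expression values per probe set for 9 Affymetrix arrays, made with RMA per the submitters' processing notes. In its usual form RMA subtracts background, brings all arrays to one distribution and summarises each set over its probes. Differences of dim genes come out smaller for it. The deposited arrays did not share one distribution, with medians of 3.95 to 4.15 and interquartile ranges of 2.22 to 2.83. The reason is not given here. The sources used here give neither the settings of RMA nor a genome build. The labels' protocols name amplification of small RNA inputs, which can add spread between arrays. The number of arrays, not a depth, limits the precision.

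Of 41345 probe sets, 23521 had 1 gene symbol, updated through gene identifiers for 23328, 1814 had several and 16010 were not listed. For each of 22180 genes the probe set of highest mean was kept, and genes below the 25th percentile of these means (3.31) were dropped. All 9 arrays entered one model in limma 3.58.1 (R 4.3.3), with Benjamini-Hochberg adjustment over 16636 genes, two-sided, called at an adjusted p under 0.05. The fit was also run on simulated data with independent noise and no outlying array. That run does not bear on an array such as WT replicate 1. Intervals are limma's 95% intervals. P-values measure the spread between arrays that the labels call biological replicates. Correlations used exact permutation over arrays.

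Named from 3 lists (partners, relatives, bound genes) were the 4 tested genes with the largest KO minus WT difference and any called, plus the closest 3 genes by r for each factor and 5 for their mean. Predicted genes, small RNAs and olfactory receptors were passed over. Members and lists were chosen with earlier results of these data known. Alternatives covered filters, probe sets, scaling, covariates, weights, blocks and left-out arrays.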

Additional observations from a re-analysis of the deposited data

How the results depend on the processing

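Under 22 other settings of the fit, no factor was called in any comparison, and of 462 differences of the 7 factors 24 turned their sign. Within one sex, 8 of 42 differences had the opposite sign to that over all arrays, among them Lmo2 at -0.43 in KO minus Het and Fli1 at -0.085 in KO minus WT, both in female mice. The cause was not tested. The sources used here do not say whether the replicate numbers pair the arrays. The r of same-numbered deviations from the genotype means, between -0.185 and 0.229, cannot settle it. With the replicate number as a block, 0 factors and 0 of all genes were called for KO with WT. Without the block 7 genes were called. For all genes that count was also 4 with the filter set at the median level, 3 after quantile normalization, 3 with sex as a term, 24 with array weights, 0 with a term for the interquartile range, 1 with only the 2 groups compared, 2 without WT replicate 1 and KO replicate 3 together, and 0 to 15 when 1 array was left out. For Het with WT 6 genes were called over all probe sets without a filter. Leaving out 1 array, the median KO minus WT difference of the factors was 0.312 (without WT replicate 1) to 1.05, and 0 to 4 pairs of factors passed. After quantile normalization 0 pairs passed, and with arrays centred on their medians 6 did.

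Turned signs were as follows. Leaving out 1 array, the range was -0.352 to 0.058 for Runx1 and -0.122 to 0.443 for Lmo4 in KO minus WT, -0.64 to 0.335 for Tal1 and -0.385 to 0.082 for Runx1 in Het minus WT, and -0.033 to 0.237 for Lyl1, -0.165 to 0.14 for Erg, -0.045 to 0.545 for Fli1, -0.162 to 0.158 for Runx1 and -0.308 to 0.087 for Gata2 in KO minus Het. Centring turned Runx1 to 0.007 in KO minus WT. Quantile normalization turned Lyl1, Runx1 and Erg to -0.007, -0.076 and -0.02 in KO minus Het, and a term for the interquartile range turned them to -0.008, -0.066 and -0.165 and Lmo4 to -0.128 in KO minus WT. Leaving out WT replicate 1 and KO replicate 3 turned Tal1 to -0.16 in KO minus WT and Gata2 to 0.087 in KO minus Het. With sex as a term Bcl11a was 0.013 in Het minus WT.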
